A study of Mus musculus with 59 samples.

Results

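The 37 genes of the mouse mitochondrial genome were followed in RNA-seq counts of brown adipose tissue (BAT). They were taken as all rows of the count tables whose symbol starts with mt-, which gave 37 of 55341 rows. They divided into 13 protein-coding genes, 2 rRNA genes and 22 tRNA genes, and in the GRCm38 annotation all of them lie on chromosome M. The choice used the symbols and no measured value.

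BAT of 59 male C57BL/6J mice aged 8 to 12 weeks was sequenced in 3 experiments, which addressed how BAT answers thyroid hormone (TH), cold and a high fat diet (HFD) in BATKO mice and in mice without that change. In the TH experiment, mice were made hypothyroid with propylthiouracil (PTU) in the food and received a single injection of T3 and T4. There were 4 wild-type (WT) mice on PTU alone and 4 at each of 3, 6, 12 and 24 h after TH, besides 5 BATKO mice on PTU alone and 5 at 24 h after TH. The temperature experiment held 3 CTRL and 4 BATKO mice kept for 24 h at 4°C and 4 CTRL and 5 BATKO mice at 30°C, and the diet experiment held 4 CTRL and 3 BATKO mice on HFD for 3.5 days and 4 CTRL and 2 BATKO mice on chow. All PTU and PTU+TH mice, controls included, carried the PTU treatment. The gene altered in BATKO mice and the promoter used were not given in the sources used here, so the targeted gene was not checked, and nothing stated which mice were littermates.

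Mitochondrial DNA is transcribed from both strands into long precursor RNAs that run through many genes. Enzymes encoded in the nucleus cut out the tRNAs, which sit between most of the other genes, and this cutting frees the rRNAs and mRNAs. The rRNA genes mt-Rnr1 and mt-Rnr2 give the RNAs of the small and the large subunit of the mitochondrial ribosome. The protein-coding genes give subunits of complex I (mt-Nd1 to mt-Nd6 and mt-Nd4l), of complex III (mt-Cytb), of cytochrome c oxidase or complex IV (mt-Co1, mt-Co2 and mt-Co3) and of ATP synthase (mt-Atp6 and mt-Atp8). Only mt-Nd6 and 8 of the tRNAs are read from the other strand. BAT makes heat in its mitochondria and is one of the tissues richest in them. Mature tRNAs are short, folded and modified, and reads on a tRNA gene can also come from uncut precursors. In bulk tissue, fewer mitochondria-rich cells and less mitochondrial RNA per cell cannot be told apart.

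Libraries of the TH experiment held 7805938 to 14615534 counts in the 20 WT mice and 13593987 to 18073627 in the 10 BATKO mice, with 8008348 to 12887313 in the 16 mice of the temperature experiment and 7612059 to 11533900 in the 13 mice of the diet experiment. Mitochondrial genes took 40.5 to 55.7%, 40.0 to 51.3%, 39.2 to 55.3% and 42.8 to 52.7% of all counts in these 4 sets. A gene with 3 counts or fewer was treated as at the limit of detection, which is at most 0.384, 0.221, 0.375 and 0.394 CPM in the shallowest library of each set (CPM, the count scaled to a library total of 1000000). These limits cover counting error only.

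Several mitochondrial genes were almost without counts in most libraries. In all WT mice given PTU or TH and all mice of the diet experiment, mt-Atp6, mt-Atp8, mt-Co3, mt-Nd3 and mt-Nd4l held 3 counts or fewer, and in the temperature experiment mt-Atp6 reached 5 counts at most. mt-Co2 held 207 to 422 counts in the WT mice, 44 to 430 in the temperature experiment and 21 to 38 in the diet experiment. The 10 BATKO mice of the TH experiment differed: mt-Co2 held 338502 to 463806 counts, mt-Atp6 476029 to 752205, mt-Atp8 92071 to 189114, mt-Co3 296147 to 380769, mt-Nd3 19832 to 48270 and mt-Nd4l 54229 to 102120. The ranges of these 6 genes in the BATKO mice did not meet those of any other set.

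The genes with few counts stand side by side in the mitochondrial genome, from mt-Co2 (chromosome M, 7013 to 7696) to mt-Nd4l (9877 to 10173), and nuclear pseudogenes on chromosome 1 carry the same sequence. When each gene was divided into windows of 50 bases, 100% of the windows of mt-Co2, 99.9% of mt-Co3, 99.5% of mt-Atp6, 98.8% of mt-Nd4l and 98.0% of mt-Nd3 occurred letter for letter in another annotated gene. The share was 62.2% for mt-Nd4, 51.1% for mt-Co1, 8.19% for mt-Nd2, 7.61% for mt-Nd5 and 1.04% for mt-Rnr2, and it was 0 for the remaining members, mt-Atp8 included. In the chromosome 1 copy, the place of mt-Atp8 lies between the annotated pseudogenes Gm10925 and Gm28661. The first bases of mt-Co3 are shown because the copy Gm28437 (chr1:24613189-24613971) matches them at every position, over 783 of 783 aligned bases:
mt-Co3: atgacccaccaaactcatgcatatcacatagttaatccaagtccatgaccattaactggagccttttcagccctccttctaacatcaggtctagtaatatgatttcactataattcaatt
The pairs below show the closest copies of 3 other genes, with the bases that differ in capitals. mt-Nd3 and Gm28438 (chr1:24612775-24613119) differ at 1 of 345 aligned bases, and mt-Co1 and Gm29216 (chr1:24615706-24616197) at 1 of 483. mt-Nd2, which kept its counts in all sets, differs from Gm13339 (chr2:22590024-22590533) at 17 of 510. The mitochondrial and nuclear sequences are from the GRCm38 genome with GENCODE M21 gene models, and each is written on the strand of the mitochondrial gene:
mt-Nd3: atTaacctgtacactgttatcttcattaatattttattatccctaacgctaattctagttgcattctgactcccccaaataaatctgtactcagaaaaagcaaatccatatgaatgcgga
Gm28438: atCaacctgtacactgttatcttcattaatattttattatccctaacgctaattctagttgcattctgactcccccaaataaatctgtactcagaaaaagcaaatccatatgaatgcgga
mt-Co1: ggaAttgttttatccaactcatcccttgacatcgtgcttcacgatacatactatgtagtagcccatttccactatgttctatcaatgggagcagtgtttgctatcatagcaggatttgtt
Gm29216: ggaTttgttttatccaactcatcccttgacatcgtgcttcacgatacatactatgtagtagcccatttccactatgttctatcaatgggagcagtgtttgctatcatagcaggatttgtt
mt-Nd2: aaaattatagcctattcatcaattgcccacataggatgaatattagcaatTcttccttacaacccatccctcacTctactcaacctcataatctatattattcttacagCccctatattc
Gm13339: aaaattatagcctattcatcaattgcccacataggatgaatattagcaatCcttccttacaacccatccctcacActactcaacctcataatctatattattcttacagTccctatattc

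The counts of the nuclear copies also differed between the sets. Gm28437 held 309392 to 397910 counts in the BATKO mice of the TH experiment and 0 in every library of the other sets. Gm10925, whose 678 aligned bases equal mt-Atp6, held 556018 to 895697 counts in those BATKO mice and at most 1 elsewhere. The 15 genes that share windows with members took 14.4 to 17.5% of all counts in the BATKO mice, against 0.0458 to 0.0694% in the WT mice, 0.00366 to 0.0809% in the temperature experiment and 0.00294 to 0.00490% in the diet experiment. The study removed reads of low alignment quality, a step that drops reads with several equal matches. The deposited columns of the BATKO mice of the TH experiment hold many counts on such genes. Those of the other sets hold almost none, the BATKO mice of the temperature and diet experiments included. Genotype and the making of the columns cannot be told apart in the TH experiment, so differences in level between WT and BATKO mice are given there only as a description of the columns, and tests used the response of each genotype to TH.

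Other mitochondrial genes differed between these columns as well. The ratio of mt-Nd1, which shares no window, to mt-Co1, which shares 51.1% of its windows, was 0.319 to 0.572 in the BATKO mice and 0.821 to 1.33 in the WT mice. When the 6 genes from mt-Co2 to mt-Nd4l were set aside, mt-Nd1 made up 12.5% ± 0.818 (SD, n = 5) of the other mitochondrial counts in BATKO mice on PTU and 21.5% ± 1.31 (SD, n = 4) in WT mice on PTU, where these other counts still include mt-Co1 and mt-Nd4. Among genes that share no window with another annotated gene, the tRNA gene mt-Tl1 had a median of 1705 counts in the BATKO mice and 64.5 in the WT mice, mt-Tt had 751 and 2.5, and mt-Td had 540.5 and 0. Sequence outside annotated genes was not searched. In the chromosome 1 copy, the place of mt-Td lies between the annotated pseudogenes Gm28661 and Gm29216. mt-Nd6, the gene on the other strand, held 479 to 1021 CPM per kb in BATKO mice, 18.1 to 50.4 in WT mice, 72.5 to 150 in the temperature experiment and 130 to 292 in the diet experiment.

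Levels per gene length differed widely between members within a set of libraries. Among WT mice given PTU or TH, the median level was 106468 CPM per kb for mt-Nd1, 87434 for mt-Cytb, 64037 for mt-Co1, 48632 for mt-Nd2, 44574 for mt-Nd4 and 28153 for mt-Nd5. The rRNAs stood below them, with 12861 for mt-Rnr1 and 6778 for mt-Rnr2. Neighbours in this order had ranges over mice that met. Far below came mt-Co2, whose windows are all shared with nuclear copies, with 42.6 and mt-Nd6, on the other strand, with 28. In the diet experiment mt-Rnr1 stood among the protein-coding genes, with a median of 43225 and a range of 34794 to 48845, and mt-Rnr2 had a median of 28917. The tables were made separately, so an order is given within each set only. Levels were divided by the whole gene length, while mt-Co1 shares 51.1% and mt-Nd4 62.2% of its windows with other genes. The order is thus one of counts and not of RNA abundance. In the BATKO mice of the TH experiment, the medians were 68571 for mt-Cytb, 67194 for mt-Co1 and 45970 for mt-Nd1, which had rank 4.

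**Figure D1:**
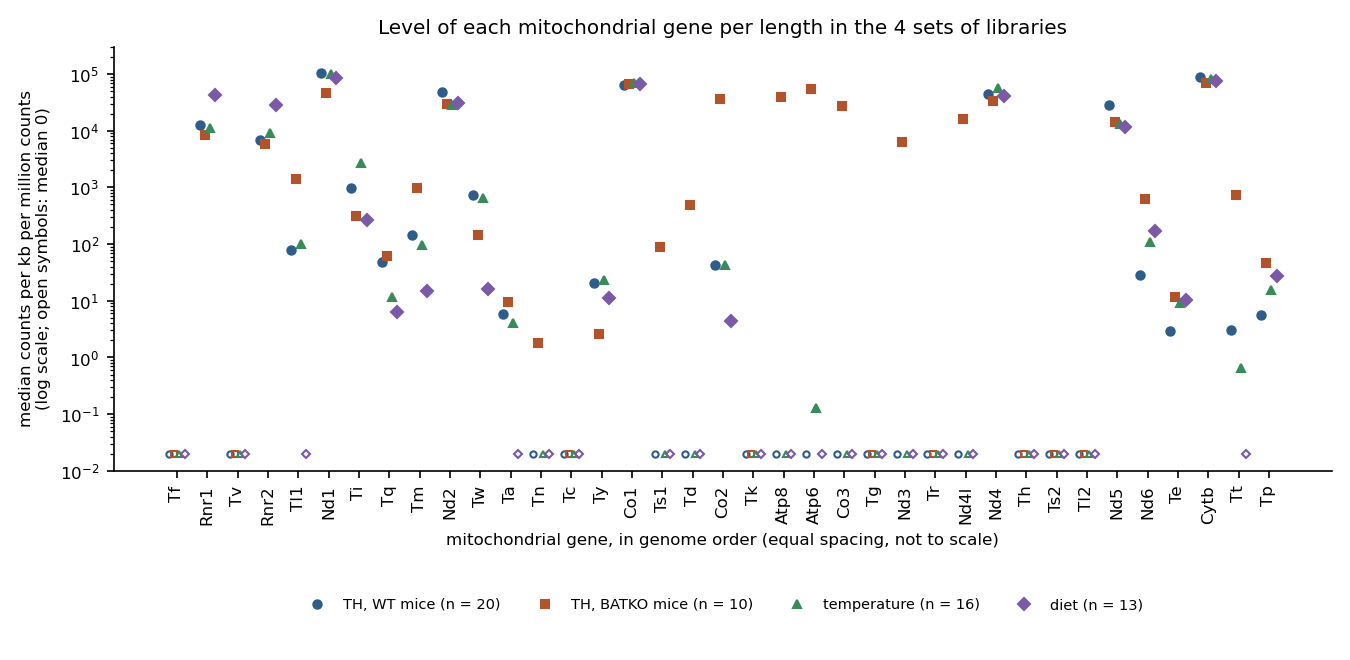
Median level of each of the 37 mitochondrial genes, in CPM per kb on a log axis, in genome order and for 4 sets of libraries; open symbols mark a median of 0. The 6 protein-coding genes from mt-Co2 to mt-Nd4l are well counted in the BATKO mice of the TH experiment, and in the other sets they have medians at or near 0, apart from mt-Co2 at 42.6 in the WT mice, 42.6 in the temperature experiment and 4.37 in the diet experiment.

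Of the 22 tRNA genes, 12 held 3 counts or fewer in every WT mouse of the TH experiment, 9 in its BATKO mice, 12 in the temperature experiment and 15 in the diet experiment, which is at or under the limit of detection set above. In the WT mice the tRNA genes with the most counts were mt-Ti (isoleucine), mt-Tw (tryptophan), mt-Tm (methionine) and mt-Tl1 (leucine). With mt-Tq (glutamine) and mt-Ty (tyrosine), they make up the 6 tRNA genes tested there. Their sequences are shown because some share bases with a neighbouring gene, which are in capitals: 5 bases of mt-Ti with mt-Nd1 and mt-Tq, 3 of mt-Tq with mt-Ti and 2 of mt-Tw with mt-Nd2. A read on such a gene can reach into its neighbour.
mt-Tl1, forward strand, 2676 to 2750: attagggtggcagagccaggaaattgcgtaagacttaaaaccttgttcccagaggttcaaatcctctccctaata
mt-Ti, forward strand, 3706 to 3774: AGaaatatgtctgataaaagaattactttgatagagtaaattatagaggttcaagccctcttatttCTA
mt-Tq, reverse strand, 3772 to 3842: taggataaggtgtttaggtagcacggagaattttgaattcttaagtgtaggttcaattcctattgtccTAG
mt-Tm, forward strand, 3845 to 3913: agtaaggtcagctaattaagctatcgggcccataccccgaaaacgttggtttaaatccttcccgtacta
mt-Tw, forward strand, 4950 to 5016: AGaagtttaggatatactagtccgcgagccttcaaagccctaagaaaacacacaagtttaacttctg
mt-Ty, reverse strand, 5260 to 5326: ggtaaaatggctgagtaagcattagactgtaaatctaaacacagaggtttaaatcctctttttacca

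In the temperature experiment, 3 libraries stood apart: CTRL 4°C mouse 1, BATKO 4°C mouse 11 and BATKO 30°C mouse 14. mt-Tl1, which shares no window, was at 0 there and at 30 to 143 counts in the other 13, mt-Co2 was at 44 to 75 against 234 to 430 counts, and the mt-Co1 copy Gm13340 was at 129 to 226 against 4007 to 7799. All diet libraries also had mt-Tl1 at 0. A further 4 libraries, BATKO 30°C mice 17 and 13 and CTRL 30°C mice 21 and 20, had the most counts for 8 skeletal muscle genes, with 10627, 9517, 5643 and 2274 CPM in sum. Where stated, results of the temperature experiment are therefore also given without the first 3 and without the last 4 libraries, an alternative chosen after the data were seen.

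**Figure D2:**
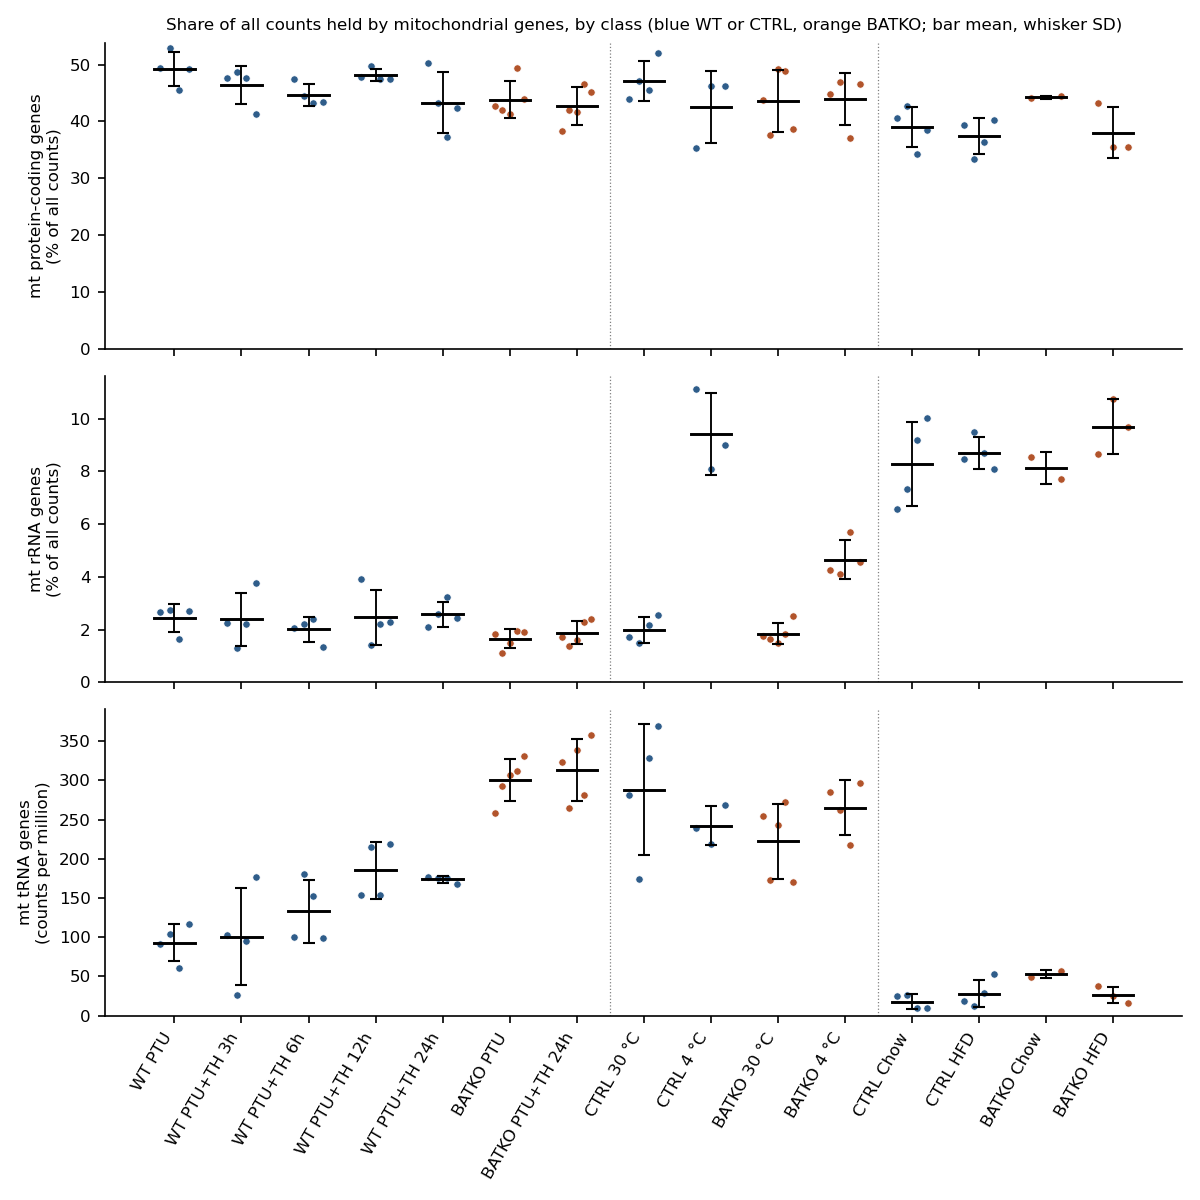
Share of all counts taken by mitochondrial protein-coding genes (percent) and by rRNA genes (percent), and CPM on tRNA genes, in the 15 groups; points are mice, bars the mean, whiskers the SD, WT and CTRL mice blue and BATKO mice orange. The rRNA share of the CTRL 4°C mice lies at 8.11 to 11.1%, above all 30°C mice, and tRNA counts of WT mice lie higher at 12 and 24 h after TH than on PTU.

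In the cold the rRNA genes took a larger share of the counts in both genotypes. rRNA genes took 11.1, 8.11 and 9.01% of all counts in the CTRL mice at 4°C and 1.70, 1.5, 2.16 and 2.57% in the CTRL mice at 30°C, with no overlap and a 4.81-fold difference of the group means on the log scale. In BATKO mice the shares were 4.26, 4.10, 5.72 and 4.55% at 4°C and 1.75, 1.66, 1.47, 1.83 and 2.53% at 30°C, again without overlap and 2.54-fold apart. The share of the protein-coding genes showed no such step: 42.6% ± 6.35 (SD, n = 3) in CTRL at 4°C, 47.1% ± 3.51 (SD, n = 4) in CTRL at 30°C, 43.9% ± 4.57 (SD, n = 4) in BATKO at 4°C and 43.6% ± 5.47 (SD, n = 5) in BATKO at 30°C, with overlapping ranges. Within the mitochondrial counts, rRNA made up 18.4% ± 4.88 and 4.01% ± 0.75 in CTRL at 4°C and 30°C (SD, n = 3 and 4) and 9.74% ± 2.43 and 4.14% ± 1.21 in BATKO (SD, n = 4 and 5). tRNA counts overlapped, with 242 ± 25.2 and 288 ± 84.0 CPM in CTRL and 265 ± 35.2 and 223 ± 47.8 in BATKO mice at 4°C and 30°C (SD, same n). No test was made on these class totals.

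Gene by gene, changes were tested with edgeR's quasi-likelihood test, with p-values adjusted over all genes of the fit by the Benjamini-Hochberg method. Each gene was tested on 2 scales. The first, called by all counts, scales a library by its total adjusted with edgeR's TMM factor (trimmed mean of M-values). Shares and CPM use the plain total, so a fold change by all counts can differ from their ratios. The second scales a library by its mitochondrial counts, so that it shows how these counts are made up. Outside the BATKO mice of the TH experiment, they nearly lack the genes from mt-Co2 to mt-Nd4l and do not stand for all mitochondrial RNA. Between CTRL mice at 4°C and 30°C, 6 of the 17 mitochondrial genes tested passed on the first scale, where 49.1% of all genes passed, and 8 of 17 on the second, where 49.6% did. In BATKO mice the counts were 7 of 17 against 40.3% of all genes and 6 of 17 against 39.1%. The shares of members called are thus near those of all genes or below. The second scale moves the median log2 fold change of all genes to -0.69 in CTRL and to -0.51 in BATKO mice, while the first leaves it within 0.04 of 0.

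Both rRNAs had higher counts in the cold in both genotypes and on both scales. The rRNA share of all counts also differed between sets of libraries. It was 1.30 to 3.94% for WT mice given PTU or TH and 6.56 to 10.7% for the diet mice. Of the 3 libraries that stood apart, CTRL mouse 1 and BATKO mouse 11 had the highest rRNA shares of their 4°C groups. Library batches were not given, so the part of library making in the cold result was not tested. mt-Rnr1, the small-subunit rRNA (chromosome M, 70 to 1024), made up 11.0, 7.23 and 8.06% of the mitochondrial counts in the CTRL mice at 4°C and 1.45, 1.41, 1.81 and 1.92% at 30°C. It was 3.94, 3.34, 4.96 and 3.11% in the BATKO mice at 4°C and 1.54, 1.66, 1.10, 1.55 and 2.71% at 30°C. The groups did not overlap within either genotype, and the lowest CTRL mouse at 4°C lay above the highest BATKO mouse at 4°C. Its log2 fold change was 3.00 ± 0.26 (SE, adjusted p = 2.47e-07) in CTRL and 1.64 ± 0.22 (SE, adjusted p = 3.06e-05) in BATKO mice when scaled by all counts, and 2.41 ± 0.25 and 1.16 when scaled by mitochondrial counts (adjusted p = 1.36e-06 and 0.000531).

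mt-Rnr2, the large-subunit rRNA (1094 to 2675), made up 12.9, 7.67 and 8.25% of the mitochondrial counts in CTRL mice at 4°C and 2.28, 1.67, 2.72 and 2.78% at 30°C. In BATKO mice it was 4.73, 4.70, 8.37 and 5.79% at 4°C and 2.3, 2.56, 1.80, 2.06 and 3.42% at 30°C. Here too the temperatures did not overlap, but BATKO mouse 11 at 4°C, at 8.37%, lay among the CTRL mice. The log2 fold change was 2.61 ± 0.25 (SE, adjusted p = 5.67e-07) in CTRL and 1.75 ± 0.21 (SE, adjusted p = 1.31e-05) in BATKO mice. The rRNAs kept these calls without the 3 libraries that stood apart (mt-Rnr1 2.94 and mt-Rnr2 2.48 in CTRL, 1.51 and 1.58 in BATKO mice) and without the 4 rich in muscle genes (2.87, 2.42, 1.78 and 1.83).

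Among the protein-coding genes, mt-Nd1 took a larger and mt-Co1 a smaller part of the mitochondrial counts in the cold. mt-Nd1, a membrane subunit of complex I at 2751 to 3707, made up 28.4, 29.3 and 25.9% of mitochondrial counts in CTRL mice at 4°C against 13.4, 17.8, 17.5 and 17.5% at 30°C, and 27.2, 26.3, 27.5 and 22.4% in BATKO mice at 4°C against 18.4, 18.8, 17.6, 19.6 and 20.5% at 30°C. mt-Co1, the catalytic subunit of cytochrome c oxidase at 5328 to 6872, did the reverse, with 10.1, 14.0 and 15.7% against 35.2, 30.2, 30.5 and 28.6% in CTRL mice and 18.6, 18.3, 14.9 and 20.2% against 29.8, 26.8, 29.0, 29.0 and 27.1% in BATKO mice. Neither gene's temperatures overlapped in either genotype. The ratio of mt-Nd1 to mt-Co1 counts was 2.19 ± 0.59 at 4°C and 0.539 ± 0.107 at 30°C in CTRL (SD, n = 3 and 4) and 1.46 ± 0.30 and 0.672 ± 0.061 in BATKO mice (SD, n = 4 and 5).

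On the scale of mitochondrial counts, mt-Nd1 rose by 0.75 ± 0.14 (SE, log2, adjusted p = 0.000247) in CTRL and by 0.45 (adjusted p = 0.00781) in BATKO mice, while mt-Co1 fell by 1.23 ± 0.16 (SE, adjusted p = 1.08e-05), or 2.35-fold, and by 0.66 (adjusted p = 0.00136). mt-Nd4 of complex I, at 10167 to 11544, fell by 0.63 ± 0.14 (SE, adjusted p = 0.00102) in CTRL and by 0.34 (adjusted p = 0.03) in BATKO mice. mt-Nd2 of complex I, next to mt-Nd1, rose by 0.47 ± 0.18 (SE, adjusted p = 0.0378) and mt-Cytb of complex III fell by 0.33 ± 0.13 (SE, adjusted p = 0.045) in CTRL mice. These smaller shifts were less secure. Shares of the mitochondrial counts add up to a whole, so the larger rRNA share in the cold by itself lowers those of other genes. How much of each fall this makes up is not given here. Without the 4 libraries rich in muscle genes, mt-Nd2 (adjusted p = 0.135) and mt-Cytb (0.299) in CTRL mice and mt-Nd1 (0.0778) and mt-Nd4 (0.247) in BATKO mice were not called. With a single mouse left out, mt-Cytb lost its call in all 7 cases (adjusted p = 0.0559 to 0.129), mt-Nd2 without CTRL 30°C mouse 19 or 20 or CTRL 4°C mouse 2 or 5 (0.0731 to 0.137), and mt-Nd4 in BATKO mice without 30°C mouse 14 or 17 or 4°C mouse 7, 8 or 11 (0.0509 to 0.095). mt-Co1 in both genotypes and mt-Nd1 and mt-Nd4 in CTRL mice kept their calls in all these cases. Tests of these genes without the 3 libraries that stood apart are not given here. Of those libraries, CTRL mouse 1 (10.1%) and BATKO mouse 11 (14.9%) had the lowest mt-Co1 shares of their 4°C groups. Scaled by all counts, mt-Nd1 rose by 1.38 ± 0.25 (SE, adjusted p = 0.000219) and mt-Nd2 by 1.10 ± 0.31 (SE, adjusted p = 0.00764) in CTRL mice, and mt-Co1 was at -0.53 ± 0.28 (SE, adjusted p = 0.132). The direction of the protein-coding class depends on the scaling: the median log2 fold change of its 8 tested members in CTRL mice was 0.55 by all counts and -0.13 by mitochondrial counts, and with library totals alone mt-Co1 (-1.12) was called lower and mt-Nd1 (0.83) higher.

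**Figure D3:**
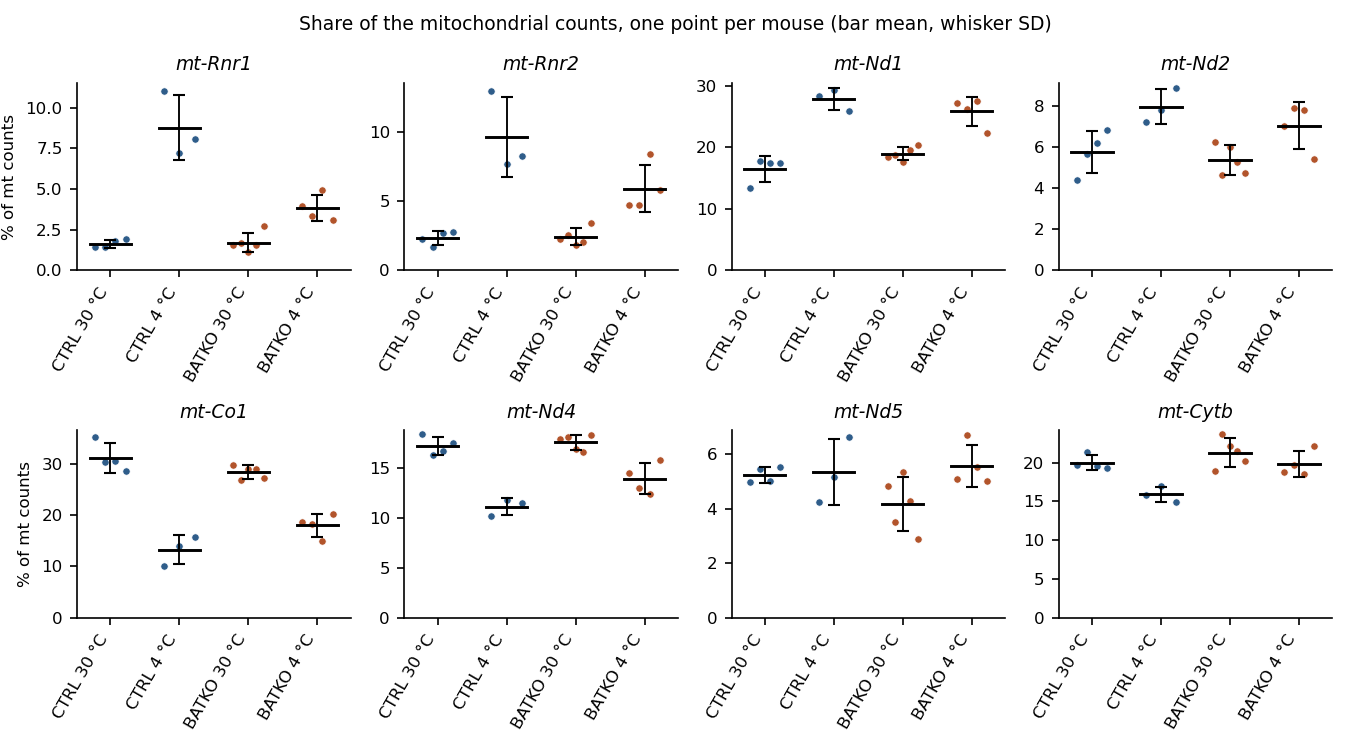
Percent of mitochondrial counts on mt-Rnr1, mt-Rnr2, mt-Nd1, mt-Nd2, mt-Co1, mt-Nd4, mt-Nd5 and mt-Cytb in each mouse of the 4 temperature groups. The rRNAs and mt-Nd1 lie higher and mt-Co1 and mt-Nd4 lower at 4°C than at 30°C, without overlap in CTRL or in BATKO mice.

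The light-strand gene mt-Nd6 rose by 0.66 ± 0.26 (SE, log2, adjusted p = 0.0418) in CTRL mice when scaled by all counts, and was at 0.03 (adjusted p = 0.941) within the mitochondrial counts. Its call was lost with library totals alone (0.10, adjusted p = 0.737), without the 3 libraries that stood apart (0.71, adjusted p = 0.062) and without the 4 rich in muscle genes (0.45, adjusted p = 0.25), and it was lost without CTRL 30°C mouse 19, 20 or 21 or CTRL 4°C mouse 1 or 5 (adjusted p = 0.055 to 0.213). In BATKO mice it was at 0.15 (adjusted p = 0.61). mt-Nd5, another complex I subunit, rose by 0.84 (adjusted p = 0.0333) and mt-Nd2 by 0.82 (adjusted p = 0.0237) in BATKO mice scaled by all counts. Neither was called with library totals alone (adjusted p = 0.0794 and 0.056), without the 3 libraries (0.0517 and 0.0595) or without the 4 (0.153 and 0.114), nor without BATKO 30°C mouse 14 or 17 or 4°C mouse 8, and mt-Nd5 also not without 4°C mouse 7 (0.051 to 0.121 for mt-Nd5 and 0.0539 to 0.0832 for mt-Nd2).

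Of the 7 tRNA genes tested, mt-Tq was called higher in the cold in both genotypes, at very low counts. It held 15, 15 and 27 counts in CTRL mice at 4°C and 3, 4, 4 and 7 at 30°C, and 16, 17, 12 and 11 in BATKO mice at 4°C and 11, 5, 8, 3 and 4 at 30°C. The CTRL groups did not overlap, while the lowest BATKO mouse at 4°C met the highest at 30°C. Genes were tested when their mean normalized count over all mice was above 10, and mt-Tq passed that filter only through the 4°C groups, with means of 23.3 and 15.7 in CTRL and BATKO mice against 4.27 and 5.56 at 30°C. The log2 fold changes were 2.45 ± 0.43 (SE, adjusted p = 0.000197) and 1.48 ± 0.38 (SE, adjusted p = 0.00493) by all counts, and 1.81 ± 0.45 (SE, adjusted p = 0.00278) and 1.01 (adjusted p = 0.047) by mitochondrial counts. The last of these calls was lost without the 3 libraries that stood apart (adjusted p = 0.087) and without the 4 rich in muscle genes (adjusted p = 0.109), and without BATKO 30°C mouse 14, 15, 16 or 17 or 4°C mouse 7, 8 or 11 (adjusted p = 0.0553 to 0.116). mt-Ti, the tRNA that abuts mt-Nd1, rose by 0.82 ± 0.21 (SE, adjusted p = 0.0061) in BATKO mice by all counts, and was not called with library totals alone (0.44, adjusted p = 0.0638).

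**Figure D4:**
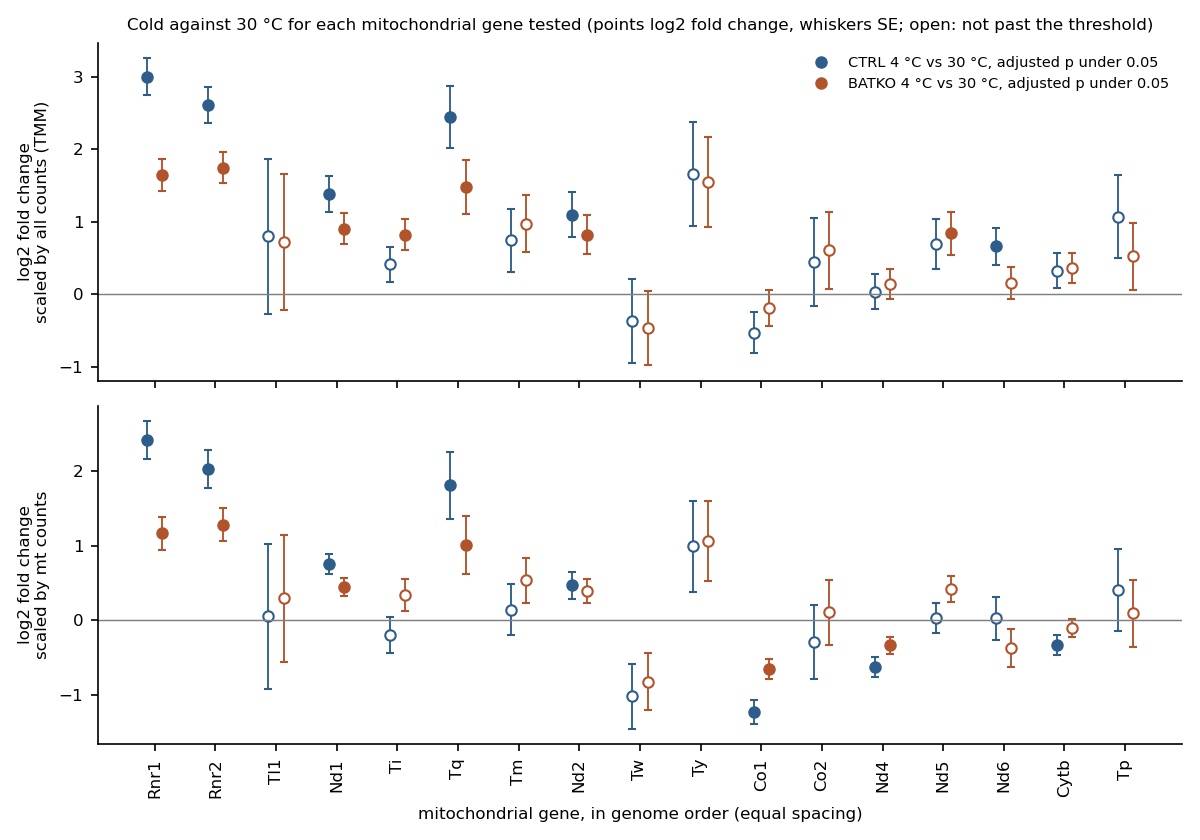
Log2 fold change at 4°C against 30°C with its SE for the 17 mitochondrial genes tested, CTRL blue and BATKO orange, scaled by all counts (top) and by mitochondrial counts (bottom); filled symbols passed an adjusted p of 0.05. mt-Rnr1 and mt-Rnr2 lie highest among the genes well counted on both scales, at 3.00 and 2.61 in CTRL mice on the first.

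BATKO and CTRL mice at 4°C differed in the rRNAs. mt-Rnr1 was lower in BATKO mice by 1.55 ± 0.25 on the log2 scale (SE, adjusted p = 0.00704), or 2.92-fold, and mt-Rnr2 by 1.06 ± 0.24 (SE, adjusted p = 0.0323), or 2.09-fold, when scaled by all counts. These were the 2 of 17 members called, against 2.16% of all genes. Within the mitochondrial counts mt-Rnr1 was called (-1.19 ± 0.25, SE, adjusted p = 0.0202) and mt-Rnr2 was not (-0.70, adjusted p = 0.16), which makes 1 of 17 against 1.15% of all genes. None of the 8 protein-coding genes tested passed, with log2 differences of -0.61 to 0.06 by all counts. The summed rRNA share was 2.02-fold lower in BATKO mice at 4°C and did not overlap with CTRL. At 30°C no member passed on either scale by edgeR or, by all counts, by DESeq2, no member had an unadjusted p under 0.05, and 0.00754% of all genes passed. There mt-Rnr1 was at -0.19 (adjusted p = 0.766) and mt-Rnr2 at -0.20 (adjusted p = 0.745).

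These calls rest on few mice. mt-Rnr1 scaled by all counts kept its call when any single mouse was left out and without the 3 libraries that stood apart (-1.55, adjusted p = 0.0337). mt-Rnr2 lost it without CTRL 4°C mouse 1 or 2 or BATKO 4°C mouse 7, 8 or 12 (adjusted p = 0.0715 to 0.124) and without the 3 libraries (adjusted p = 0.117). Within the mitochondrial counts, mt-Rnr1 lost its call without CTRL 4°C mouse 1, 2 or 5 or BATKO 4°C mouse 8 or 12 (adjusted p = 0.0513 to 0.0814) and without the 3 libraries (adjusted p = 0.0582). The difference between the responses of the genotypes to cold was tested as an interaction, and no member of 17 passed with edgeR on either scale, against 1.12 and 0.0452% of all genes. It was -1.36 ± 0.33 for mt-Rnr1 (SE, adjusted p = 0.0581) and -0.86 ± 0.32 for mt-Rnr2 (SE, adjusted p = 0.16) by all counts, and -1.25 (adjusted p = 0.173) and -0.74 (adjusted p = 0.492) by mitochondrial counts. At an unadjusted p under 0.05 there were 2 members by all counts and 3 by mitochondrial counts, as against 2471 and 1285 of all 13267 genes, and DESeq2 called 1 by all counts. mt-Rnr1 was called without CTRL 30°C mouse 22 (adjusted p = 0.0234) or CTRL 4°C mouse 5 (adjusted p = 0.0427).

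Marker genes of brown adipocytes and of other cell types were followed beside the rRNAs in the cold. The summed level of 10 brown adipocyte genes was 13046 to 19197 CPM in CTRL mice at 4°C and 1121 to 2769 at 30°C, and 8920 to 17655 and 2242 to 4000 in BATKO mice. In CTRL mice 8 of them rose and 1 fell, where 26.5% of all genes rose and 22.6% fell, and 7 rose in BATKO mice, where 21.4% of all genes rose. Of 4 erythroid genes 2 rose in each genotype, with a sum of 547 to 1208 against 205 to 425 CPM in CTRL and 684 to 969 against 184 to 657 in BATKO mice. The 8 skeletal muscle genes were not called, but their sum ran from 119 to 469 at 4°C and from 1.03 to 5643 at 30°C in CTRL mice, and from 5.64 to 1712 and from 0.912 to 10627 in BATKO mice. Between BATKO and CTRL mice at 4°C, 2 of the 10 brown adipocyte genes were lower, with 2.16% of all genes called in either direction, and no erythroid or muscle gene passed by edgeR or had an unadjusted p under 0.05. The part of cell composition in the rRNA results was not tested.

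Nuclear genes that act on mitochondrial DNA and RNA were examined beside the rRNAs. Of 40 such genes tested in CTRL mice, 27 rose and 2 fell at 4°C, with a median log2 fold change of 0.92 against -0.01 over all genes, of which 26.5% were called higher and 22.6% lower. In BATKO mice 29 of 40 rose, with a median of 0.65 and with 21.4% of all genes called higher. With library totals alone 23 were called in CTRL and 18 in BATKO mice, and without the 4 libraries rich in muscle genes 24 and 24. Of the 14 genes of RNA stability and turnover, 13 were higher in each genotype. Ptcd2, an RNA-binding protein of the pentatricopeptide repeat family, rose by 1.80 ± 0.16 (SE, log2, adjusted p = 2.46e-07) and Tbrg4, of the FASTK family of mitochondrial RNA-binding proteins, by 1.79 ± 0.16 (SE, adjusted p = 2.92e-07) in CTRL mice. The 2 genes that fell both act in tRNA maturation: Trnt1, which adds the CCA end, by 0.54 (adjusted p = 0.0181) and 1110008L16Rik, the nuclease Prorp that cuts the 5' end, by 0.60 (adjusted p = 0.0477). Both of these calls were lost without the 3 libraries that stood apart (adjusted p = 0.0731 and 0.0859).

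Transcription genes rose in 4 of 7 cases in CTRL and 6 of 7 in BATKO mice, RNA cleavage genes in 4 of 7 in each, and rRNA modification genes in 4 of 6 in each. Of 6 replication genes, 2 rose in each genotype. Between BATKO and CTRL mice at 4°C their median was -0.14 and none of the 40 passed with edgeR, while 9 had an unadjusted p under 0.05, as did 2194 of all 13267 genes, and DESeq2 called 3. The CTRL 4°C and the BATKO 4°C mice are shared between these comparisons.

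After TH in hypothyroid WT mice, the protein-coding and rRNA shares overlapped with those on PTU at every time, whereas tRNA counts lay higher at 12 and 24 h. Protein-coding genes took 49.3% ± 2.98 of all counts on PTU and 46.3% ± 3.35, 44.6% ± 1.93, 48.2% ± 1.11 and 43.3% ± 5.38 at 3, 6, 12 and 24 h (SD, n = 4 each). rRNA genes took 2.44% ± 0.53 on PTU and 2.39% ± 1.02, 2.00% ± 0.46, 2.46% ± 1.06 and 2.58% ± 0.48 (SD, n = 4 each). All later ranges met that of the PTU mice in both classes. tRNA genes held 91.0, 104, 61.1 and 116 CPM on PTU, 154, 215, 154 and 219 at 12 h and 177, 175, 176 and 168 at 24 h. The mice at 12 and 24 h all lay above the PTU mice, at 2.02-fold and 1.92-fold of their level, while 3 h (26 to 177) and 6 h (98.7 to 180) overlapped with PTU. Within the mitochondrial counts the ratios were 2.06 and 2.16.

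In the tests against the PTU mice, which the 4 time points share, few of the 16 members tested passed. At 3 h none passed on either scale by edgeR or, by all counts, by DESeq2, with 1 and 2 members at an unadjusted p under 0.05 (3244 and 2666 of all 13003 genes) and with 9.19 and 4.61% of all genes called. At 6 h 2 passed on each scale (23% and 25% of all genes), at 12 h 4 by all counts and 3 by mitochondrial counts (25.7% and 15.3%), and at 24 h 3 and 5 (32.7% and 36.6%). The members' shares are therefore close to or below those of all genes at every time. Of these calls, 7 of the 9 by all counts and all 10 by mitochondrial counts were tRNA genes called higher. Higher calls made up 12.1, 13.6 and 17.2% of all genes by all counts at 6, 12 and 24 h, and 22.7, 8.25 and 32.4% by mitochondrial counts, against 1, 4 and 2 and 2, 3 and 5 of the 6 tRNA genes. One of the 6, mt-Ty, passed the filter on low counts only through the groups given TH, with a mean normalized count of 4.65 on PTU and 13.4 to 21.8 after TH. It supplies 3 of the 7 and 3 of the 10 tRNA calls, so these counts describe the genes that passed the filter and not the tRNA class. The median log2 fold change over all genes was -0.02 at 12 h and 0.01 at 24 h by all counts, and -0.01 and 0.37 by mitochondrial counts.

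mt-Tl1, the tRNA between mt-Rnr2 and mt-Nd1, held 3.23, 2.01, 3.49 and 5.57 CPM on PTU, 6.07, 6.16, 6.81 and 6.92 at 12 h and 5.76, 9.28, 15.9 and 9.70 at 24 h. The later mice all lay above the PTU mice. The fitted change of mt-Tl1 on the log2 scale came to 0.88 ± 0.30 at 12 h (SE, adjusted p = 0.0332) and 1.31 ± 0.29 at 24 h (SE, adjusted p = 0.00146) by all counts, and 1.72 at 24 h by mitochondrial counts (adjusted p = 0.0011).

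mt-Tm, next to mt-Nd2, held 7.38, 6.36, 4.11 and 7.74 CPM on PTU, 12.1, 20.0, 12.8 and 21.3 at 12 h and 13.7, 15.2, 9.85 and 10.3 at 24 h, with no overlap. It rose by 1.36 ± 0.37 (SE, log2, adjusted p = 0.00872) at 12 h by all counts, by 1.4 (adjusted p = 0.0118) at 12 h and by 1.11 (adjusted p = 0.0245) at 24 h by mitochondrial counts. mt-Tw, on the other side of mt-Nd2, held 33.1, 44.4, 23.2 and 24.9 on PTU, 45.9, 107, 53.3 and 68.7 at 12 h and 56.7, 70.6, 47.9 and 54.3 at 24 h, again with no overlap. It rose by 1.12 ± 0.39 (SE, adjusted p = 0.0355) at 12 h by all counts, and by mitochondrial counts by 1.15 at 6 h (adjusted p = 0.0316), 1.17 at 12 h (adjusted p = 0.0399) and 1.06 at 24 h (adjusted p = 0.0338).

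mt-Ty was read from few counts: 2, 10, 1 and 4 on PTU, 22, 18, 32 and 22 at 6 h, and 17, 17, 5 and 13 at 12 h. By 24 h it held 30, 14, 9 and 14. In CPM the 6 h and 24 h mice all lay above the PTU mice, at 24 h narrowly (lowest 0.813 against a highest of 0.805 on PTU), and the 12 h mice overlapped with them. The change of mt-Ty on the log2 scale came to 2.33 ± 0.59 at 6 h (SE, adjusted p = 0.00639), 1.90 ± 0.63 at 12 h (SE, adjusted p = 0.0293) and 2.02 ± 0.61 at 24 h (SE, adjusted p = 0.0141) by all counts, and 2.67 (adjusted p = 0.00105), 1.92 (adjusted p = 0.021) and 2.33 (adjusted p = 0.00223) by mitochondrial counts. mt-Tq, at 2.38, 3.38, 0.889 and 2.08 CPM on PTU and 6.22, 5.32, 5.6 and 4.18 at 24 h, passed at 24 h by mitochondrial counts (1.48, adjusted p = 0.0401). mt-Ti, the tRNA with the most counts, did not pass: it held 43.7, 45.1, 28.7 and 75.5 CPM on PTU, 81.5, 75.7, 76.0 and 116 at 12 h and 89.8, 71.9, 95.0 and 87.3 at 24 h.

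**Figure D5:**
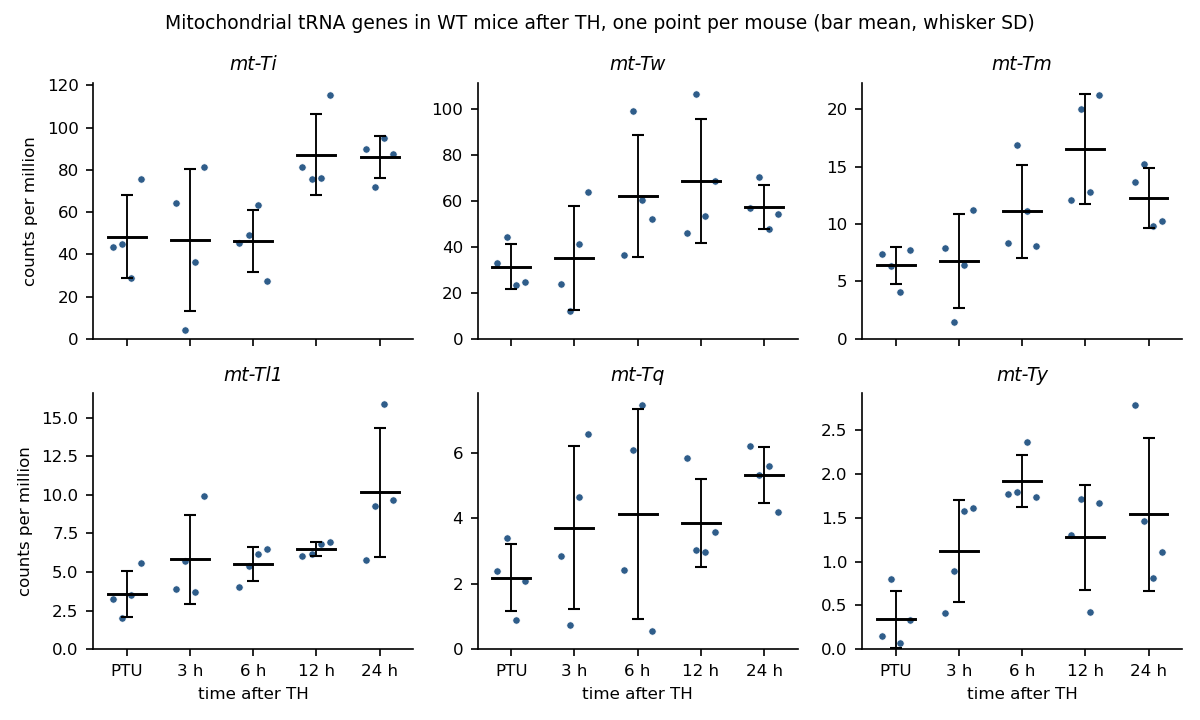
CPM of mt-Ti, mt-Tw, mt-Tm, mt-Tl1, mt-Tq and mt-Ty in each WT mouse on PTU and at 3, 6, 12 and 24 h after TH, with the group means. mt-Tm, mt-Tw and mt-Tl1 lie above all PTU mice at 12 and 24 h. The ranges at 3 h overlap with those on PTU for every gene shown, with mt-Ty at 0.407 to 1.61 CPM at 3 h and 0.0684 to 0.805 on PTU.

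Several of these calls depended on single mice or on the tool. At 6 h, mt-Tw was not called by mitochondrial counts without PTU mouse B2, B4 or B5 or 6 h mouse B13, B15 or B17 (adjusted p = 0.0523 to 0.119). At 12 h, DESeq2 did not call mt-Tw (adjusted p = 0.0514) and library totals alone did not call mt-Tl1 (0.86, adjusted p = 0.0652). There, mt-Tl1 was not called by all counts without PTU mouse B2, B3 or B4 or any of the 12 h mice (adjusted p = 0.0511 to 0.105), nor mt-Tw without PTU mouse B2, B4 or B5 or 12 h mouse B20 or B23 (0.0513 to 0.157), nor mt-Ty without PTU mouse B2, B4 or B5 or 12 h mouse B19, B20 or B23 (0.0533 to 0.0986). By mitochondrial counts at 12 h, mt-Tw was lost without PTU mouse B2, B4 or B5 or 12 h mouse B20 or B23 (0.0714 to 0.155) and mt-Ty without PTU mouse B2 or B4 or 12 h mouse B20 or B23 (0.0559 to 0.0702). At 24 h by all counts, mt-Tl1 kept its call without any single mouse, and mt-Ty lost it without PTU mouse B4 (0.0529) or 24 h mouse B24 (0.0676). By mitochondrial counts at 24 h, mt-Tm, mt-Tq and mt-Tw lost theirs without 3, 6 and 6 of the 8 mice, with adjusted p of 0.0521 to 0.0902, PTU mouse B4 and 24 h mouse B26 among them each time.

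Of the protein-coding genes, mt-Nd1 fell by 0.45 ± 0.16 (SE, log2, adjusted p = 0.0456) at 6 h and mt-Nd5 by 0.49 ± 0.16 (SE, adjusted p = 0.0203) at 24 h when scaled by all counts. Neither passed within the mitochondrial counts. mt-Nd1 lost its call without PTU mouse B2, B3 or B5 or 6 h mouse B13, B15 or B17 (adjusted p = 0.0717 to 0.142), and mt-Nd5 without PTU mouse B3 or 24 h mouse B27 or B28 (0.0603 to 0.102). At 6 h all 8 had negative values by all counts, from -0.46 to -0.17, and values from -0.12 to 0.15 within the mitochondrial counts. The rRNAs did not pass at any time: at 24 h mt-Rnr1 was at -0.26 (adjusted p = 0.548) and mt-Rnr2 at 0.01 (adjusted p = 0.987), and mt-Nd6 was at 0.12 (adjusted p = 0.742). Beside these values, the summed level of the 10 brown adipocyte genes was 6446 to 9085 CPM on PTU and 9744 to 21559 at 24 h, and that of the 8 muscle genes 58.5 to 680 and 267 to 1309. Their part in the tRNA and mRNA values was not tested.

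In BATKO mice, no member of 25 tested passed at 24 h after TH on either scale with edgeR, and 0% of all genes passed. At an unadjusted p under 0.05 there was 1 member on each scale, besides 673 and 334 of 14178 genes, and DESeq2 called no member by all counts. The log2 fold changes of the members by all counts ran from -0.17 to 0.75. tRNA counts were 300.2 ± 26.8 CPM on PTU and 313 ± 39.1 at 24 h (SD, n = 5 each) and overlapped. The difference between the BATKO and WT responses was tested as an interaction for the 17 members above the limit of detection in both genotypes, and 1 passed on each scale, against 12.3 and 5.28% of all genes. This was mt-Tl1, at -1.31 ± 0.36 (SE, adjusted p = 0.0148) by all counts and -1.65 ± 0.42 (SE, adjusted p = 0.0174) by mitochondrial counts. The call was lost without WT PTU mouse B3 (adjusted p = 0.0502 and 0.0612) or WT 24 h mouse B27 (adjusted p = 0.054 and 0.0772). mt-Tl1 had a median of 1705 counts in the BATKO columns and 64.5 in the WT columns, so the 2 responses were read from columns that differ widely in their counts on this gene.

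Among the nuclear genes, 12 of 40 rose and 3 fell in WT mice at 24 h, with a median log2 fold change of 0.14 and with 17.2% of all genes called higher and 15.5% lower. In BATKO mice 0 of 41 passed by edgeR, as did 0 of all 14178 genes, and 0 had an unadjusted p under 0.05, against 673 of all genes. RNA stability and turnover genes made up 8 of the 12. Ptcd2 rose by 0.88 ± 0.09 (SE, adjusted p = 2.36e-07) and Lrpprc, which stabilises mitochondrial mRNAs, by 0.77 ± 0.09 (SE, adjusted p = 2.14e-06). Rexo2, an oligoribonuclease, fell by 0.63 (adjusted p = 0.00534) and Trnt1 by 0.28 (adjusted p = 0.0239). The call of Trnt1 was lost with library totals alone (-0.10, adjusted p = 0.523).

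No mitochondrial gene passed the test between HFD and chow. In CTRL mice, 0 of 14 members passed on either scale with edgeR, against 3.94 and 1.19% of all genes, with 0 and 1 members at an unadjusted p under 0.05 (2802 and 1931 of all 12932 genes) and none called by DESeq2 by all counts. rRNA genes took 8.70% ± 0.60 of all counts on HFD and 8.28% ± 1.60 on chow (SD, n = 4 each), and protein-coding genes 37.4% ± 3.16 and 39.0% ± 3.57. mt-Rnr1 differed by 0.07 ± 0.11 (SE, log2, adjusted p = 0.743), mt-Rnr2 by 0.05 ± 0.14 (SE, adjusted p = 0.865), mt-Nd5 by -0.47 ± 0.26 (SE, adjusted p = 0.317) and mt-Nd6 by 0.25 (adjusted p = 0.541). The ratio of mt-Nd1 to mt-Co1 counts was 0.690 to 0.893 on HFD and 0.586 to 0.677 on chow, without overlap, but neither gene passed within the mitochondrial counts (0.19 ± 0.09 and -0.17 ± 0.09, SE, adjusted p = 0.352 and 0.403).

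Between BATKO and CTRL mice on HFD, 0 of 14 members passed on either scale with edgeR, none passed with DESeq2 by all counts, none had an unadjusted p under 0.05, and 0% of all genes passed. mt-Rnr1 was at 0.12 (adjusted p = 0.894), mt-Rnr2 at 0.27 (adjusted p = 0.884), mt-Nd5 at 0.34 (adjusted p = 0.886) and mt-Nd6 at -0.42 (adjusted p = 0.884). The rRNA shares of the BATKO mice on HFD were 8.65, 10.7 and 9.68%, and those of the CTRL mice on HFD 8.08 to 9.51%. None of the 40 nuclear genes passed between CTRL mice on HFD and chow by edgeR or DESeq2, where 3.94% of all genes passed by edgeR, and 7 had an unadjusted p under 0.05, as did 2802 of all 12932 genes. The 2 BATKO mice on chow were left out of the tests, and had 8.56 and 7.70% rRNA, 44.1 and 44.5% protein-coding and 49.3 and 56.9 tRNA CPM.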

How the data were processed

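BAT RNA was extracted with Trizol, converted to libraries with the total RNA SENSE kit (Lexogen) and sequenced on an Illumina NextSeq sequencer. The authors deposited raw counts per gene in 3 tables, made from reads aligned to mm10 (GRCm38) with Bowtie2 2.3.2.2, from which reads of low alignment quality were dropped, and counted with htseqcount. The annotation and the strand setting of the counting were not given in the sources used here. No column belonged to another sample (0 columns).

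From these counts, class totals were expressed as shares of all counts and of mitochondrial counts. Genes with a mean normalized count above 10 were tested with edgeR 4.0.16 (quasi-likelihood, TMM) in R 4.3.3, with p-values adjusted over all genes and a threshold of 0.05. Fits used the 20 WT mice of the TH experiment (13003 genes), all 30 mice of that experiment (14178 genes), 16 of the temperature experiment (13267) and 13 of the diet experiment (12932), each with group as the term. A second fit used the mitochondrial counts as library size. Alternatives were DESeq2 1.42.0, other scalings and filters, only the groups compared, and each mouse left out. Scripts were tested on simulated data. Windows of 50 bases were matched with GENCODE M21 gene models, using Python 3.11.15, Biopython 1.88 and matplotlib 3.10.9.

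The text names, in each comparison, the protein-coding member with the lowest p in each direction, both rRNAs, mt-Nd6, every tRNA called and, added to that rule, every protein-coding member called, and, of the nuclear list in 4 comparisons, the 2 called genes with the lowest p in each direction. Other genes are named where a result turns on them. The members and lists were chosen with earlier results of these data known. Samples are separate mice, but litters and library batches were not given.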

Additional observations from a re-analysis of the deposited data

Results flagged for a closer look

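Over the groups of 4 or 5 mice, 180 sets of values were tested for a stray mouse, and 8 held one far from the others, against about 1 in 20 by chance. For the protein-coding share of all counts, WT mouse B11 at 3 h was low at 41.4% (the others 47.7 to 48.6%) and WT mouse B20 at 12 h high at 49.8% (47.5 to 47.9%). WT PTU mouse B4 had a low rRNA share of 1.64% (2.67 to 2.74%). BATKO 4°C mouse 11, one of the libraries with mt-Tl1 at 0, had rRNA at 13.3% of mitochondrial counts (8.05 to 8.89%). CTRL 30°C mouse 19 had a low ratio of mt-Nd1 to mt-Co1, 0.381 (0.574 to 0.614), and mt-Nd1 at 13.4% of mitochondrial counts (17.5 to 17.8%). BATKO mouse 10 at 24 h after TH had mt-Nd4 at 11.9% (10.4 to 10.8%), and WT mouse B11 at 3 h had mt-Cytb at 20.2% (21.6 to 21.8%).

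The response of mt-Tl1 to TH at 24 h differed between BATKO and WT mice, by -1.31 by all counts and -1.65 by mitochondrial counts on the log2 scale, in columns that differ widely in their counts on this gene.

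Outside the mitochondrial genes, the 15 genes that share sequence with them took a median of 15.6% of all counts in the BATKO mice of the TH experiment, against 0.0614% in the WT mice, where the highest was 0.0694%.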

How the results depend on the processing

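Of 2164 values of the 156 named gene results under alternative settings, 2001 kept their direction and side of the threshold, 157 lost the call, 6 gained one and 0 reversed. The number of members called at 6 h after TH by all counts, 2, was 4 with DESeq2, 1 with library totals, 0 with a mean count above 50, which removes the tRNA called, and 1 with only the groups compared. Between BATKO mice at 4°C and 30°C, 7 became 4 with library totals. For the difference of the cold responses, 0 became 1 with DESeq2 and 1 with a mean count above 50. Between BATKO and CTRL mice at 4°C, the alternative without the 3 libraries with mt-Tl1 at 0 gave 1 instead of 2 by all counts and 0 instead of 1 by mitochondrial counts. With nuclear counts as denominator, the log2 ratio of the protein-coding share was -0.29 at 6 h and -0.35 at 24 h after TH. The causes were not tested.

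With each mouse left out in turn, the members called by all counts and by mitochondrial counts numbered 0 to 1 and 0 to 1 at 3 h, 1 to 4 and 1 to 3 at 6 h, 1 to 3 and 1 to 3 at 12 h, and 2 to 7 and 2 to 5 at 24 h after TH in WT mice. The 1 at 3 h came without PTU mouse B3 on both scales or 3 h mouse B7 by mitochondrial counts, the 4 at 6 h without PTU mouse B4 and the 7 at 24 h without mouse B24. They numbered 0 to 1 and 0 to 1 for the difference of the TH responses, 0 to 1 by all counts for that of the cold responses, and 1 to 2 and 0 to 1 between BATKO and CTRL mice at 4°C.

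No paired analysis was possible because the groups compared share fewer than 2 replicate numbers. Of the 22 tRNA genes, 12 were at 3 counts or fewer in every WT mouse, so a change in them could not be seen there.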
